A study of Homo sapiens with 9 samples.

Results

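The enzymes that carry glucose to lactate were followed at the mRNA level in HCCLM3, an established human hepatocellular carcinoma line described in the labels as highly metastatic and of genotype WT. The members are 10 genes chosen by symbol, of 17492 genes in the deposited table: PFKL, PFKP, ALDOA, ALDOC, GAPDH, PGK1, ENO1, ENO2, PKM and LDHA. All 10 were found, and all 10 passed the filter on low counts. The same line was sequenced under 3 conditions: cells given the vehicle DMSO (3 libraries), quercetin at 50 µM (3 libraries) and quercetin at 100 µM (3 libraries). Quercetin is a plant flavonol, and the series asks how its concentration acts on liver cancer cells. How long the cells were treated is not stated. The labels do not tie replicates to separate cultures; the spread behind every p-value may thus be technical, and all libraries come from 1 cell line.

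Glycolysis splits glucose into 2 molecules of pyruvate in the cytosol and yields ATP without oxygen, and lactate dehydrogenase then turns pyruvate into lactate. Most steps have several isoenzymes from separate genes, some of them housekeeping forms and some typical of liver, muscle or brain. Normal hepatocytes use the liver form of pyruvate kinase, whereas liver tumours commonly express the PKM gene. Many glycolytic genes are known targets of the hypoxia-inducible factors and of MYC.

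Library totals ran from 20061136 to 21599805 estimated counts. Within groups, DMSO replicate 1 and 100 µM replicate 3 stood apart: the chi-square per gene against their companions was 28.2 and 28.1 for DMSO replicate 1 and 85 and 87.2 for 100 µM replicate 3, against 3.63 to 5.1 for the other pairs of replicates. Fits without either or both of them were run as alternatives. Both were picked by their distance from their companions in these same data. Such fits leave a smaller spread by choice, so their p-values are too small and serve only as description. The labelled liver origin was faint in the marker genes: ALB lay between 0.76 and 13.96 TPM (a level scaled to transcript length and to the library), AFP between 3.56 and 6.09 TPM and HNF4A between 9.58 and 21.23 TPM, while the epithelial keratin KRT8 was between 2923 and 4497 TPM. By group, ALB had 0.76 to 1.99 TPM with DMSO, 5.62 to 9.57 TPM at 50 µM and 6.73 to 13.96 TPM at 100 µM. APOB went the other way, with 1.22 to 1.37, 0.24 to 0.27 and 0.25 to 0.41 TPM in the same order. Of the markers of other cells, PTPRC (leukocytes) stayed at or under 1.34 TPM, the summed haemoglobin genes at or under 0.54 TPM and the summed muscle genes at or under 0.38 TPM. In the fibroblast list the collagen genes COL1A1, COL1A2 and COL3A1 and PDGFRB stayed at or under 0.26 TPM and DCN at or under 4.82 TPM, while LUM, a proteoglycan of the extracellular matrix, had 54.65 to 106 TPM. The sum of that list was 57.7 to 87.2 TPM with DMSO, 66.2 to 73.5 TPM at 50 µM and 63.6 to 109.5 TPM at 100 µM, with overlap. The endothelial list, mostly PECAM1, summed to 19.9 to 22.2 TPM with DMSO, 10.2 to 11.9 TPM at 50 µM and 10.7 to 13.9 TPM at 100 µM, so both treated groups lay below DMSO; VWF and CDH5 stayed at or under 1.18 TPM. CD68, a lysosomal protein of macrophages that tumour cells also express, made up nearly the whole leukocyte list. The leukocyte sum was 184.9 to 256.9 TPM with DMSO, 164 to 180.7 TPM at 50 µM and 253.9 to 377.5 TPM at 100 µM. The part of these lists in the results below was not tested.

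With quercetin at 100 µM, 6 of the 10 enzymes rose against DMSO and none fell. The brain-type isoforms moved furthest, ALDOC to 6.62-fold and ENO2 to 3.65-fold of the DMSO level, followed by PGK1 (2.28-fold), LDHA (1.91-fold), PFKL (1.76-fold) and ALDOA (1.53-fold). Among all 12832 genes tested, 21% were called in this comparison, with 10.7% of all genes higher and 10.3% lower. A gene is called when its adjusted p, Benjamini-Hochberg over all genes after edgeR's quasi-likelihood fit, is at most 0.05. The median log2 fold change of the 10 members was 0.72, against 0.0009 for all genes tested. In CPM (counts scaled to library size) 8 members lay above DMSO without overlap of the libraries, which 17.3% of all genes did.

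At 50 µM 5 of 10 members rose against DMSO, where 5.28% of all genes were called higher, 6.31% lower and 11.6% in all. These were PFKL, ALDOC, PGK1, ENO2 and LDHA, with folds between 1.36 and 2.66. The median of the members was 0.34 on the log2 scale, against 0.0033 for all genes, and 6 members lay above DMSO without overlap, as 24.4% of all genes did. Between the doses, 4 members rose further at 100 µM relative to 50 µM (ALDOC, PGK1, ENO2 and LDHA), against 2.25% of all genes called higher, 1.89% lower and 4.15% in all. The median of the members was 0.46 and that of all genes 0.0121, and 8 members lay above 50 µM without overlap, as 13.3% of all genes did. No member was called lower in any of the 3 comparisons by edgeR, at an unadjusted p under 0.05 or by DESeq2. The comparisons share libraries, so they are not independent of each other.

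**Figure D1:**
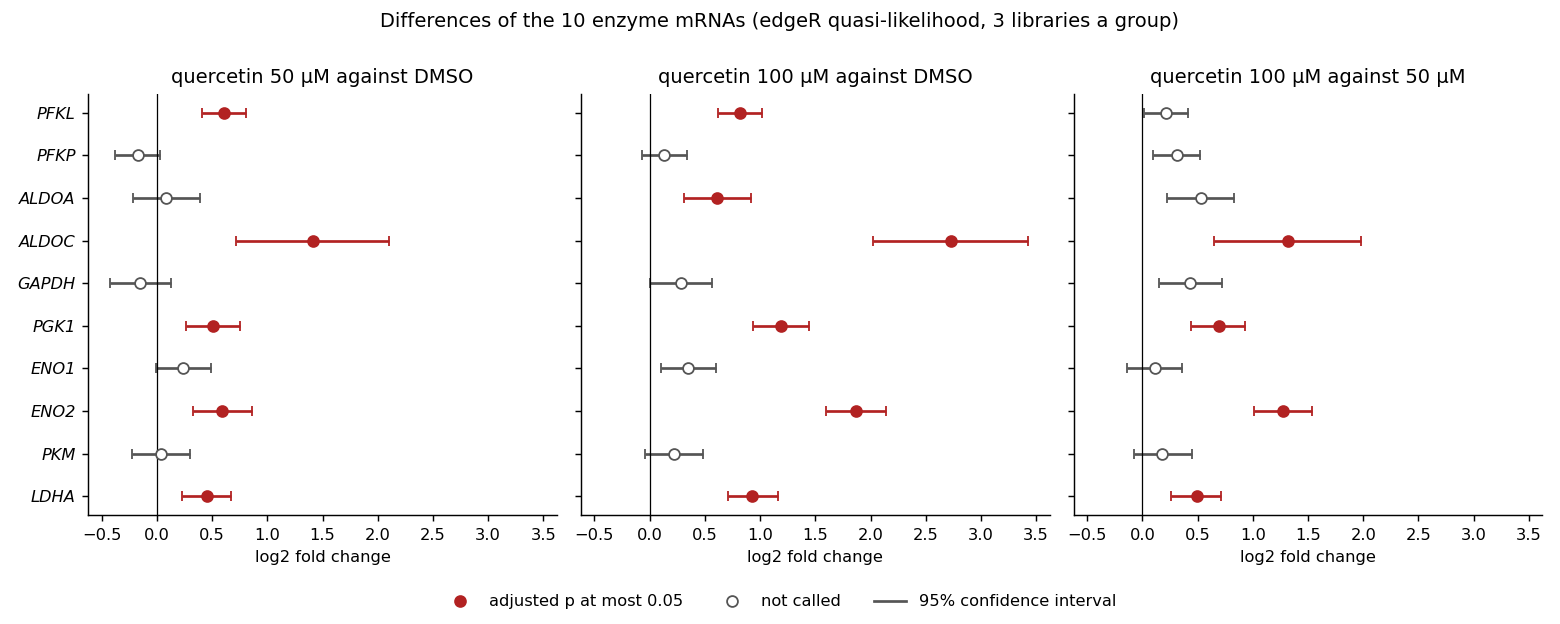
Log2 fold change (x axis) of each of the 10 enzyme mRNAs in 3 comparisons, with 95% confidence intervals from edgeR; filled points have an adjusted p of at most 0.05. ALDOC and ENO2 lie furthest to the right at 100 µM against DMSO, at 2.73 and 1.87, while PFKP, GAPDH, ENO1 and PKM are open points in all 3 panels.

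ALDOC, PGK1, ENO2 and LDHA were called in all 3 comparisons, and PFKP, GAPDH, ENO1 and PKM in none. How many of all genes were called in all 3 or in none was not counted, so these calls have no share beside them. In 5 members (PFKL, ALDOC, PGK1, ENO2 and LDHA) the 3 groups did not overlap in CPM and rose at each dose step, which held for 2.81% of all genes tested. The dose steps were unequal. ENO2 rose 1.51-fold at 50 µM against DMSO and 2.42-fold at 100 µM against 50 µM, while PFKL had its called rise at 50 µM (1.52-fold) and stood 1.16-fold higher at 100 µM than at 50 µM (log2 0.21 ± 0.089 SE, adjusted p = 0.2, edgeR). At 50 µM the member calls were fragile: leaving out DMSO replicate 2 or 50 µM replicate 3 left 0 of 10 called (5 at an unadjusted p under 0.05 in each fit), and leaving out DMSO replicate 3 or 50 µM replicate 1 or 2 left 1, while the calls over all genes fell to between 90 and 170. At 100 µM against DMSO all 6 calls stood without any 1 of the 9 libraries. Without both libraries that stand apart, every member but GAPDH was called higher at 100 µM against DMSO and every member but ENO1 at 100 µM against 50 µM. In these comparisons of that fit 48.6% and 47.3% of all genes were called, higher and lower together. Of the 6272 calls at 100 µM against DMSO 3125 were higher, and of the 6105 against 50 µM 3176 were.

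The stretch of 250 bases before the transcription start is shown for the 4 genes called in all comparisons and for ENO1 and PKM, called in none, because 5 of the 6 hold the letters of a known response element. The sequences are from RefSeq (GRCh38.p14), read 5′ to 3′ on the gene's strand up to the base before the first start listed, and all 10 members were matched by gene ID. Capitals mark ACGTG or GCGTG on either strand (CACGT or CACGC as read here), the core letters of the hypoxia response element bound by hypoxia-inducible factors. Where both strands match the same letters, as in CACGTG, the overlapping matches count as 1 stretch.
ALDOC: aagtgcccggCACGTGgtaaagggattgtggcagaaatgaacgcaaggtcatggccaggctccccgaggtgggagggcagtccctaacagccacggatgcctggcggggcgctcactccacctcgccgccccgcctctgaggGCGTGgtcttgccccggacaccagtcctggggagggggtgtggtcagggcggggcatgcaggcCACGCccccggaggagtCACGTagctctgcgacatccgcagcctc
ENO2: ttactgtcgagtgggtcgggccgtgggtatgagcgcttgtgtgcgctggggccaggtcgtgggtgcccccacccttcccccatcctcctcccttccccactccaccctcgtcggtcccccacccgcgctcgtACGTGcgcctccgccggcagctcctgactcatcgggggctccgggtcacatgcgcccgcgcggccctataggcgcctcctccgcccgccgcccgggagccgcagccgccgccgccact
PGK1: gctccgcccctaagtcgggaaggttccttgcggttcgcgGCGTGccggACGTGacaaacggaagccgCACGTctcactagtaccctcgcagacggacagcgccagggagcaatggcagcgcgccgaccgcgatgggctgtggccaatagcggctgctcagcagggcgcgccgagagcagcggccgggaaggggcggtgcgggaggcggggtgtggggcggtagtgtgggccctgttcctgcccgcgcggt
LDHA: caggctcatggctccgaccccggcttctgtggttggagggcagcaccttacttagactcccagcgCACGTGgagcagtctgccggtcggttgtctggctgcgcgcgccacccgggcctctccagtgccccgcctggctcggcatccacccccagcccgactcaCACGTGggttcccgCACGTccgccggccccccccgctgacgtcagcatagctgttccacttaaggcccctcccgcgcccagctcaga
ENO1: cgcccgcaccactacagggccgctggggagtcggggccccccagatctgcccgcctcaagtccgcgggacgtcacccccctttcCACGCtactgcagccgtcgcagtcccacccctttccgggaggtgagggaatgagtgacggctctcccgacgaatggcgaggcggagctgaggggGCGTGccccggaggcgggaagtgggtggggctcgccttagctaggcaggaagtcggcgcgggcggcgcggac
PKM: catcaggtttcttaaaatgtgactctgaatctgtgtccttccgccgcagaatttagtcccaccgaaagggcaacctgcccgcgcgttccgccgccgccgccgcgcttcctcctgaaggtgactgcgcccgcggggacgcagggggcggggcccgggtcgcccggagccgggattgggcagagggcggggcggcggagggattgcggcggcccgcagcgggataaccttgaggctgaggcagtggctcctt
They lie at chr17:28576896-28577145, minus strand (ALDOC); chr12:6914330-6914579, plus strand (ENO2); chrX:78103998-78104247, plus strand (PGK1); chr11:18394313-18394562, plus strand (LDHA); chr1:8878687-8878936, minus strand (ENO1); and chr15:72231191-72231440, minus strand (PKM). ALDOC held 4 stretches, PGK1 and LDHA 3 each, ENO1 2, ENO2 1 and PKM 0. Of the 10 members, each at its first start, 8 held at least 1 stretch and 4 held at least 2. Among 35116 promoters of the same length, 43.2% held at least 1 and 16.2% at least 2. That set counts every listed start, several for some genes, so the units differ and no test was made. PFKP held none at its first start, and PFKL, ALDOA and GAPDH held 1 each. The bases after the first start of PFKP and of GAPDH were not found in the GENCODE v29 transcripts of these genes, so their windows are uncertain and are not printed. Of the 4 PFKP starts listed, 2 hold a match. The printed windows of ALDOC, ENO2, PGK1, ENO1 and PKM lie within the annotated gene spans given below, and that of LDHA partly so. Annotated transcripts of these genes thus also start farther upstream. A match is a description of letters and shows no binding, and its part in the mRNA levels was not tested.

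Phosphofructokinase commits the sugar to glycolysis, and its 3 subunit genes PFKL (liver type), PFKM (muscle type) and PFKP (platelet type) assemble into tetramers. PFKL (chr21:44300051-44327376, plus strand) had 52.7, 44.2 and 41.1 TPM in the 3 DMSO libraries, 63.9, 68 and 69.6 TPM at 50 µM and 78.7, 80.1 and 73.1 TPM at 100 µM. The 3 groups did not overlap. PFKL rose at 100 µM against DMSO by 0.82 ± 0.0899 on the log2 scale (SE; adjusted p = 0.000725, edgeR) and at 50 µM by 0.61 ± 0.0897 (adjusted p = 0.00711, edgeR). PFKP (chr10:3066333-3137712, plus strand) was the most abundant subunit, with 283.6, 329.8 and 311.2 TPM with DMSO, 254.4, 267.4 and 261.6 TPM at 50 µM and 342.6, 351.3 and 274.4 TPM at 100 µM. Its lowest levels were those at 50 µM, and in TPM 100 µM replicate 3 lay below all DMSO libraries. PFKP did not pass the test in any comparison; the largest difference was 1.24-fold higher at 100 µM than at 50 µM (adjusted p = 0.0894, edgeR), which was called without both libraries that stand apart (1.3-fold, adjusted p = 1.42e-06, where 47.3% of all genes were called). The third subunit, PFKM, which is no member, fell 1.4-fold at 100 µM against DMSO (adjusted p = 0.00956, edgeR), with 66.4, 64.7 and 76.2 TPM at 100 µM and 102.4, 99.4 and 102.7 TPM with DMSO.

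Aldolase splits the sugar into 2 triose phosphates; ALDOA is the muscle and housekeeping form and ALDOC the brain form. ALDOC (chr17:28573115-28577264, minus strand) was the scarcest member with DMSO at 19.6, 14.1 and 15.3 TPM; it had 39, 45.2 and 41.4 TPM at 50 µM and 71.6, 77.4 and 156.5 TPM at 100 µM. The groups did not overlap, and 100 µM replicate 3 was about as far above its 2 companions as they were above 0. ALDOC rose at 100 µM against DMSO by 2.73 ± 0.315 on the log2 scale (adjusted p = 0.000864, edgeR), at 50 µM against DMSO by 1.41 ± 0.308 (2.66-fold, adjusted p = 0.0223) and at 100 µM against 50 µM by 1.32 ± 0.295 (2.49-fold, adjusted p = 0.0425). Without DMSO replicate 1 and 100 µM replicate 3 the 100 µM fold against DMSO was 5.1 (adjusted p = 1.28e-17, edgeR) and that against 50 µM was 1.75 (adjusted p = 8.25e-10, edgeR). Of all genes, 48.6% and 47.3% were called in these comparisons of that fit. The call between the doses was lost on leaving out DMSO replicate 2 or 3, any 50 µM library or 100 µM replicate 2 (largest adjusted p = 0.168, edgeR).

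ALDOA (chr16:30064164-30070457, plus strand) was far more abundant, at 1534, 2051 and 2011 TPM with DMSO, 1891, 1900 and 1929 TPM at 50 µM and 2879, 3128 and 2224 TPM at 100 µM. The 50 µM libraries fell within the DMSO range, and all 3 libraries at 100 µM lay above both other groups. ALDOA rose at 100 µM against DMSO by 0.61 ± 0.136 on the log2 scale (adjusted p = 0.0136, edgeR); in a fit of these 2 groups only the call was lost (adjusted p = 0.0586). Against 50 µM it was 1.44-fold higher at 100 µM and missed the threshold (adjusted p = 0.0586, edgeR). DMSO replicate 1 and 100 µM replicate 3 held the lowest ALDOA level of their groups. The difference between the doses was called without DMSO replicate 1 (adjusted p = 0.0232, edgeR), without 100 µM replicate 3 (adjusted p = 0.00507), without both (1.55-fold, adjusted p = 4.14e-10) and by DESeq2, while the fold at 100 µM against DMSO was 1.5 without both (adjusted p = 8.98e-09, edgeR).

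GAPDH oxidises glyceraldehyde phosphate and PGK1 makes the first ATP of the pathway from its product. GAPDH (chr12:6533927-6538374, plus strand) was the most abundant member in every group, at 7798, 9906 and 10083 TPM with DMSO, 8305, 7946 and 7858 TPM at 50 µM and 10449, 10374 and 11438 TPM at 100 µM. It did not pass the test: at 100 µM it was 1.22-fold of DMSO (95% confidence interval of the log2 fold change 0.0 to 0.56, adjusted p = 0.132, edgeR) and at 50 µM it was 1.11-fold below DMSO (adjusted p = 0.425, edgeR). At 100 µM against 50 µM GAPDH was 1.35-fold higher (log2 0.43 ± 0.125), with an adjusted p of 0.0814 (edgeR) that was 0.0323 without DMSO replicate 1 and 0.0374 without 100 µM replicate 3. Without both libraries that stand apart, GAPDH was called lower at 50 µM than with DMSO (0.829-fold, adjusted p = 9.86e-05, edgeR). In that comparison and fit 57.4% of all genes were called, higher and lower together. GAPDH is widely used as a reference gene, and it has 62 named pseudogenes in GENCODE v29, none of them in the deposited table, so reads of these copies may be counted in it.

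PGK1 (chrX:77910739-78129296, plus strand) had 638.8, 671.2 and 713.7 TPM with DMSO, 996.6, 879.5 and 886.2 TPM at 50 µM and 1421, 1403 and 1576 TPM at 100 µM. The groups were far apart, and no library crossed into another group's range. PGK1 rose at 100 µM against DMSO by 1.19 ± 0.11 on the log2 scale (adjusted p = 0.000339, edgeR), at 50 µM against DMSO by 0.51 ± 0.109 (1.42-fold, adjusted p = 0.0214) and at 100 µM against 50 µM by 0.69 ± 0.109 (1.61-fold, adjusted p = 0.0122). The last call was lost when any 1 of the 50 µM libraries was left out (largest adjusted p = 0.0865, edgeR). Without both libraries that stand apart the 100 µM fold against DMSO was 2.06. The annotated span of PGK1 overlaps ATP7A on its own strand and PGAM4 on the other, which are also in the table, and whether reads were counted by strand is not stated.

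Enolase makes phosphoenolpyruvate; ENO1 is the ubiquitous form and ENO2 the neuronal form, known in the clinic as neuron-specific enolase. ENO2 (chr12:6913745-6923698, plus strand) had 47.6, 58 and 58.2 TPM with DMSO, 87.5, 77.2 and 73.3 TPM at 50 µM and 183.6, 187.5 and 199.4 TPM at 100 µM. The replicates lay close together within each group, and the step above 50 µM was the larger. ENO2 had the smallest adjusted p of the members at 100 µM against DMSO, with a rise of 1.87 ± 0.121 on the log2 scale (adjusted p = 5.7e-05, edgeR). It rose by 0.59 ± 0.118 at 50 µM against DMSO (adjusted p = 0.0178) and by 1.27 ± 0.118 at 100 µM against 50 µM (adjusted p = 0.0015). The call between the doses and that at 100 µM against DMSO stood without any 1 of the 9 libraries (largest adjusted p = 0.0214 and 0.000796, edgeR). ENO2 overlaps LRRC23 on the same strand.

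ENO1 (chr1:8861000-8879250, minus strand) was the main enolase, at 3333, 3482 and 3514 TPM with DMSO, 3914, 3853 and 3948 TPM at 50 µM and 3873, 3978 and 4660 TPM at 100 µM. Both treated groups lay above DMSO without overlap, and they overlapped each other. The differences were small and not called: 1.27-fold at 100 µM against DMSO (log2 0.35 ± 0.112, adjusted p = 0.0525, edgeR) and 1.18-fold at 50 µM against DMSO (adjusted p = 0.174, edgeR; 0.01 without 100 µM replicate 3). At 100 µM against DMSO ENO1 was called under 8 of the alternatives, DESeq2 and the fits without 100 µM replicate 1 or 3 among them. Its difference between the doses was 1.08-fold and turned to 0.988-fold without both libraries that stand apart.

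Pyruvate kinase closes glycolysis, and the PKM gene gives the M1 and M2 splice forms, which a table per gene does not tell apart. PKM (chr15:72199029-72231822, minus strand) had 3532, 3904 and 3805 TPM with DMSO, 3661, 3703 and 3741 TPM at 50 µM and 4663, 4714 and 3206 TPM at 100 µM. At 100 µM, 2 libraries were above and replicate 3 below all others. PKM was 1.16-fold of DMSO at 100 µM (adjusted p = 0.207, edgeR) and 1.03-fold at 50 µM (adjusted p = 0.841, edgeR). Without both libraries that stand apart it was 1.23-fold at 100 µM and called (adjusted p = 0.000103, edgeR), as it was without 100 µM replicate 3 alone (adjusted p = 0.00358). Of all genes, 48.6% and 29.8% were called in these fits. The liver and red-cell gene PKLR, no member, was at or under 0.24 TPM in every library.

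LDHA (chr11:18394388-18408425, plus strand), the subunit of lactate dehydrogenase that favours lactate formation, had 1075, 1172 and 1268 TPM with DMSO, 1685, 1444 and 1451 TPM at 50 µM and 2198, 2097 and 2055 TPM at 100 µM. The 3 groups did not overlap. LDHA rose at 100 µM against DMSO by 0.93 ± 0.1 on the log2 scale (adjusted p = 0.000648, edgeR), at 50 µM against DMSO by 0.45 ± 0.0994 (1.36-fold, adjusted p = 0.0234) and at 100 µM against 50 µM by 0.49 ± 0.0994 (1.4-fold, adjusted p = 0.03). The call between the doses was lost on leaving out DMSO replicate 2, any 50 µM library or 100 µM replicate 1 or 2 (largest adjusted p = 0.148, edgeR). LDHB, the other common subunit and no member, went the other way between the doses: it fell 1.38-fold at 100 µM against 50 µM (adjusted p = 0.0367, edgeR), with 1965, 1948 and 2182 TPM at 100 µM and 2856, 2746 and 2917 TPM at 50 µM. With DMSO, LDHB had 2456, 2249 and 2477 TPM. LDHA has 6 named pseudogenes in GENCODE v29, PKM 5, ENO1 4, ALDOA 2 and PGK1 1, and none of them is in the table, so a part of these genes' reads may come from the copies.

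**Figure D2:**
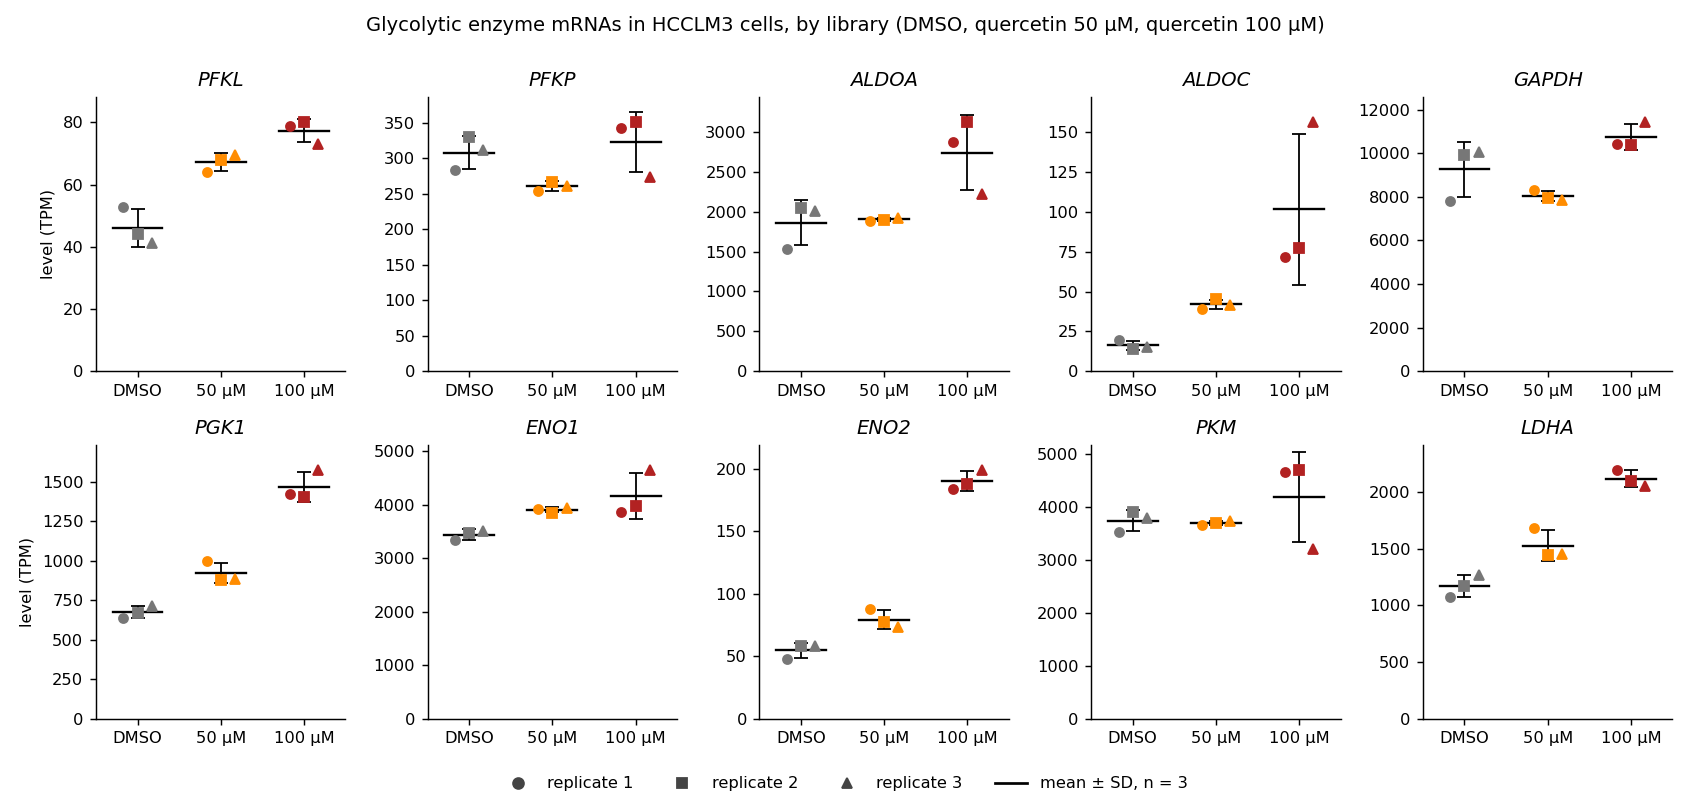
Level in TPM (y axis, from 0) of each of the 10 genes in DMSO, quercetin 50 µM and quercetin 100 µM; symbols are libraries, the line is the group mean and the bar its SD (n = 3). PFKL, ALDOC, PGK1, ENO2 and LDHA step up with dose without overlap, while 100 µM replicate 3 is the lowest 100 µM library for PFKL, PFKP, ALDOA, PKM and LDHA and the highest for ALDOC, GAPDH, PGK1, ENO1 and ENO2.

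The isoform make-up of the families was compared as shares of family TPM, with an exact permutation test of the 3 groups (Kruskal-Wallis statistic, 1680 arrangements) and Benjamini-Hochberg adjustment over 5 shares. ALDOC made up 0.902% ± 0.316 of aldolase mRNA with DMSO, 2.15% ± 0.155 at 50 µM and 3.81% ± 2.4 at 100 µM (SD, n = 3 each; exact permutation p = 0.00357, the smallest it can give, adjusted p = 0.00893). The large SD at 100 µM came from replicate 3, at 6.57%, where the other libraries had 2.43% and 2.42%. ENO2 made up 1.56% ± 0.132 of enolase mRNA with DMSO, 1.99% ± 0.182 at 50 µM and 4.38% ± 0.238 at 100 µM, with the same exact permutation p. In both families the groups did not overlap, and the housekeeping form remained the bulk of the family's mRNA.

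LDHA was the minor lactate dehydrogenase with DMSO (32.9% ± 2.11) and at 50 µM (34.9% ± 1.99), and reached 51% ± 2.26 at 100 µM (exact permutation test of 3 groups, adjusted p = 0.0312). DMSO and 50 µM overlapped, and all 3 libraries at 100 µM lay above both. PFKP made up 67.6% ± 2.61 of phosphofructokinase mRNA with DMSO, 62.8% ± 0.279 at 50 µM and 68.6% ± 3.34 at 100 µM, with no order by dose (adjusted p = 0.0312 by the same exact permutation test). As a description, PFKL took 10.1%, 16.1% and 16.5% in the same order, and PFKM 22.3%, 21.1% and 14.9%. PKM made up 100% of pyruvate kinase mRNA in each group when rounded. Between any 2 groups of 3 an exact permutation test cannot go below p = 0.1. The calls of the LDHA and PFKP shares were fragile: each was lost on leaving out any 1 of 6 of the 9 libraries (adjusted p = 0.0759 to 0.116 by exact permutation), where fewer libraries also raise the smallest p. For LDHA these were DMSO replicate 1, 50 µM replicates 1 and 2 and every 100 µM library, and for PFKP DMSO replicate 1, every 50 µM library and 100 µM replicates 1 and 2. Without both libraries that stand apart the LDHA share was 18.3 points higher at 100 µM than with DMSO, with an adjusted p of 0.226 by exact permutation.

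**Figure D3:**
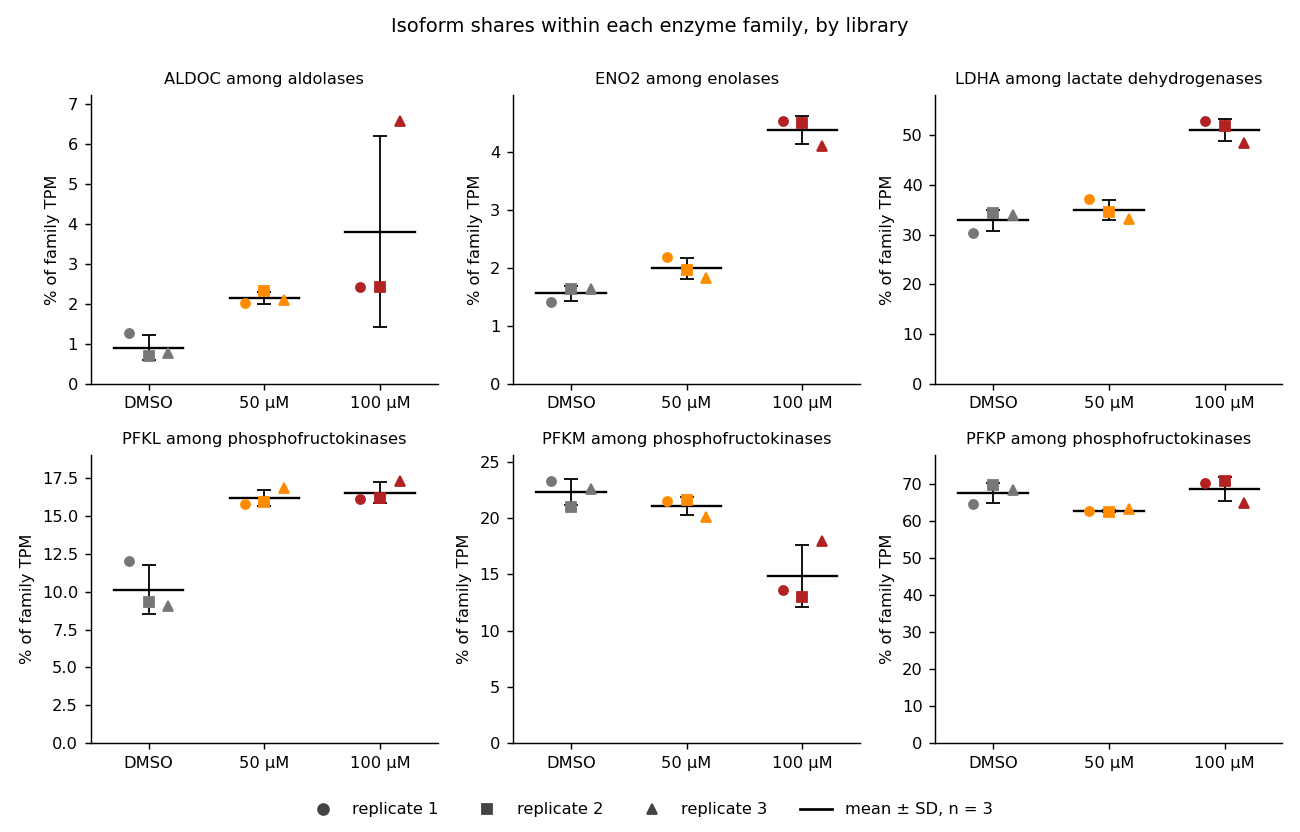
Share of each isoform in its family's TPM (y axis, percent, from 0) in each library, by group; lines and bars are mean and SD (n = 3). ENO2 stands near 4.38% and LDHA near 51% at 100 µM, PFKM is lowest there with a mean of 14.9%, and PFKL is at 16.1% and 16.5% in the 50 and 100 µM groups.

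The sum of the 10 genes was made up mostly of GAPDH, PKM and ENO1. Over all members, the libraries held 18314, 21633 and 21820 TPM with DMSO, 20897, 20183 and 20259 TPM at 50 µM and 26159, 26391 and 25863 TPM at 100 µM. The DMSO and 50 µM groups overlapped and the 100 µM libraries lay above both; this is a description with no test. GAPDH was 42.6% to 46.2% of the sum with DMSO, 38.8% to 39.7% at 50 µM and 39.3% to 44.2% at 100 µM, and it ranked 2 or 3 among all genes of each library. By mean TPM the order with DMSO was GAPDH, PKM, ENO1, ALDOA, LDHA, PGK1, PFKP, ENO2, PFKL and ALDOC, and only ENO2 and PFKL overlapped as neighbours. At 50 µM ENO1 stood before PKM with no overlap between them. At 100 µM PKM and ENO1 overlapped, and ALDOC had passed PFKL in the mean with overlapping libraries. TPM is relative to all mRNA of a library, and fewer cells or less RNA per cell cannot be told apart in it.

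**Figure D4:**
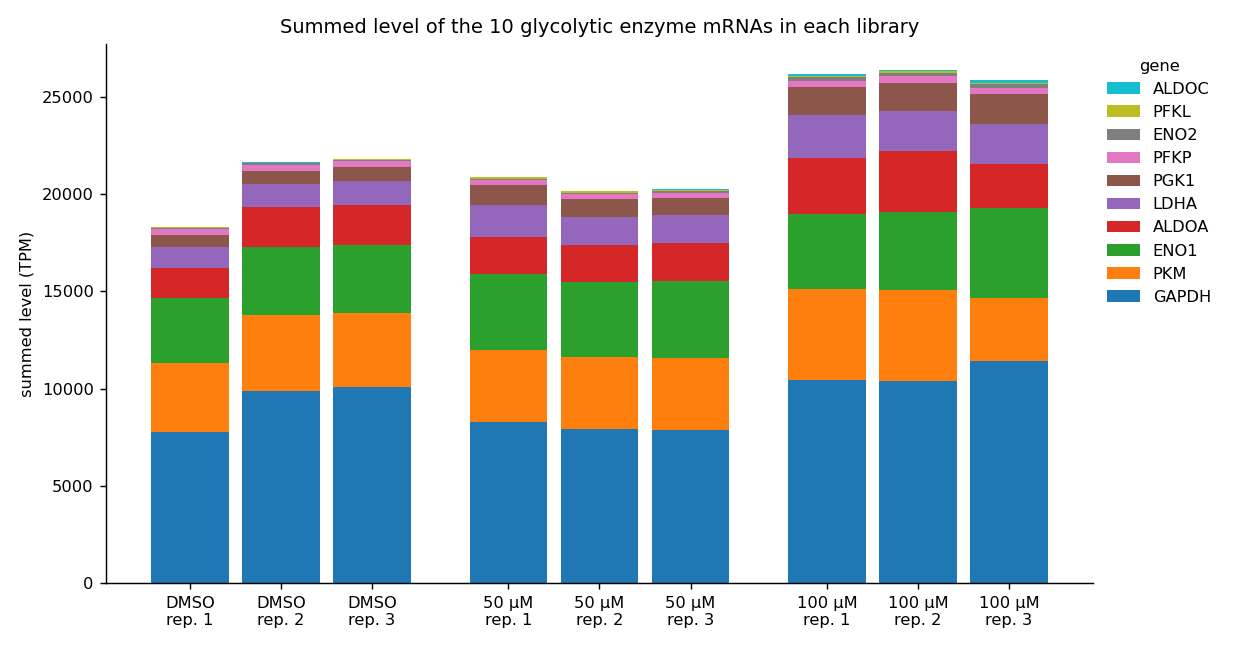
Summed level (TPM, y axis from 0) of the 10 genes in each of the 9 libraries, stacked by gene. The 3 libraries at 100 µM reach 25863 to 26391 TPM, above the 18314 to 21820 TPM with DMSO and the 20183 to 20897 TPM at 50 µM, and DMSO replicate 1 is the lowest.

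Of 82 other genes of glucose metabolism in 7 lists, 80 were in the table and 62 were tested. At 100 µM against DMSO 11 of the 62 rose and 10 fell, at 50 µM against DMSO 4 rose and 4 fell, and at 100 µM against 50 µM 6 rose and 3 fell, by edgeR. Over all genes 10.7% were called higher and 10.3% lower in the first comparison, 5.28% and 6.31% at 50 µM and 2.25% and 1.89% between the doses, so the counts at 50 µM were near those over all genes. In the list of the remaining isoforms and steps, 9 of 16 genes were tested and 1 rose at 100 µM against DMSO: TPI1, the triose phosphate isomerase, at 1.71-fold (adjusted p = 0.000853, edgeR) with 2422, 2497 and 2489 TPM at 100 µM and 1480, 1486 and 1579 TPM with DMSO. It also rose at 50 µM, 1.38-fold (adjusted p = 0.0153). GPI (384.1 to 538 TPM as group means), PGAM1 (727.4 to 943.7 TPM) and BPGM (18.4 to 20.6 TPM) were not called in any comparison. GAPDHS, ENO3 and LDHD had group means between 0.643 and 1.56 TPM and were not called, and PGK2, PGAM4, ENO4 and LDHC did not pass the filter.

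Upstream, PFKFB3 and PFKFB4 make and degrade fructose 2,6-bisphosphate, the strongest activator of phosphofructokinase. PFKFB4 rose with each step: it had 6.43, 5.63 and 5.74 TPM with DMSO, 9, 7.86 and 8.66 TPM at 50 µM and 19.9, 19.2 and 22.3 TPM at 100 µM. Its fold was 3.63 at 100 µM against DMSO (adjusted p = 5.7e-05, edgeR), 1.5 at 50 µM against DMSO (adjusted p = 0.0195) and 2.42 at 100 µM against 50 µM (adjusted p = 0.0015). PFKFB3 rose 2.07-fold at 100 µM against DMSO (adjusted p = 0.00047, edgeR) and 1.62-fold at 100 µM against 50 µM (adjusted p = 0.0119). The glucose transporter SLC2A1 was 2.54-fold higher at 100 µM than at 50 µM (adjusted p = 0.0484, edgeR), but DMSO replicate 1 at 60.6 TPM and 100 µM replicate 3 at 108.8 TPM were far below their companions (146.1 and 142 TPM with DMSO; 201 and 201.8 TPM at 100 µM). The 50 µM libraries held 63.6 to 72.8 TPM. Against DMSO SLC2A1 was not called at 100 µM (1.52-fold, adjusted p = 0.197, edgeR) or at 50 µM (1.68-fold lower, adjusted p = 0.138). Its call between the doses was lost in 7 of the fits that left out 1 library (largest adjusted p = 0.176, edgeR). Without both libraries that stand apart its log2 difference between the doses was 1.56 (adjusted p = 5.94e-17, edgeR), where 47.3% of all genes were called. The hexokinase HKDC1 fell at 100 µM (1.65-fold, adjusted p = 0.0128) and at 50 µM (1.66-fold, adjusted p = 0.0215) against DMSO, by edgeR, and GCKR, the inhibitor of glucokinase, fell 2.24-fold at 100 µM (adjusted p = 0.00822) and 3-fold at 50 µM (adjusted p = 0.00701). HK1, HK2 and PFKFB2 were not called.

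Downstream, SLC16A3, the transporter MCT4 that exports lactate, rose in all 3 comparisons. It had 118.6, 78.2 and 76.8 TPM with DMSO, 155.8, 154.4 and 154.1 TPM at 50 µM and 235.7, 239.7 and 248.1 TPM at 100 µM, a fold of 2.8 at 100 µM and of 1.79 at 50 µM against DMSO (adjusted p = 0.0005 and 0.0131, edgeR) and of 1.57 at 100 µM against 50 µM (adjusted p = 0.0438). SLC16A1, the transporter MCT1, was not called. Of 5 listed genes of the pyruvate dehydrogenase complex, which takes pyruvate into the mitochondrial route, 3 fell at 100 µM against DMSO: DLAT 1.43-fold (adjusted p = 0.00371, edgeR), DLD 1.31-fold (adjusted p = 0.00753) and PDHA1 1.27-fold (adjusted p = 0.0196). Over all genes 10.3% were called lower there. These 5 were grouped after their values were seen, so the count of 3 is a description. The PDHA1 call was lost in 4 of the fits that left out 1 library. PDHB stood 1.17-fold higher (adjusted p = 0.298, edgeR) and PDHX 1.12-fold lower (adjusted p = 0.248), neither called. DLAT also fell at 50 µM against DMSO (1.24-fold, adjusted p = 0.0442, edgeR) and DLD at 100 µM against 50 µM (1.33-fold, adjusted p = 0.0202). PDK4, a kinase that switches that complex off, fell 1.86-fold at 100 µM (adjusted p = 0.0321, edgeR) and 2.61-fold at 50 µM (adjusted p = 0.0146) against DMSO. At 100 µM its libraries overlapped those of DMSO in CPM. Leaving out 1 library lost the PDK4 call in 8 of the fits at 100 µM and in 5 at 50 µM. The sister kinases PDK1, PDK2 and PDK3 were not called in any comparison. At 100 µM against DMSO they stood at 1.07-fold, 1.07-fold and 1.47-fold (adjusted p = 0.761, 0.847 and 0.053, edgeR). At 100 µM against DMSO the pyruvate list held 2 genes that rose and 4 that fell, of 16 tested, beside 10.7% and 10.3% of all genes.

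In the side branches, 4 of 8 tested glycogen genes rose at 100 µM against DMSO and 1 fell, beside the 10.7% and 10.3% of all genes; PGM1, which links glucose 1- and 6-phosphate, rose 1.55-fold (adjusted p = 0.000713, edgeR). Between the doses 2 of the 8 rose, PGM1 at 1.42-fold (adjusted p = 0.00769, edgeR) and GBE1, the glycogen branching enzyme, at 1.51-fold (adjusted p = 0.0282). Of all genes 2.25% were called higher between the doses. PYGB, the brain glycogen phosphorylase, fell 1.45-fold at 100 µM against DMSO (adjusted p = 0.0158, edgeR) and GYS1, the glycogen synthase outside liver, rose 1.63-fold there (adjusted p = 0.0158). In the pentose phosphate list 1 of 8 rose (PGLS, 1.24-fold, adjusted p = 0.0214, edgeR) and 1 fell (RPIA, 1.28-fold, adjusted p = 0.0276) at 100 µM against DMSO, and RPIA also fell between the doses (1.38-fold, adjusted p = 0.0283). In the gluconeogenesis list 1 of 4 tested genes rose, PC at 1.43-fold (adjusted p = 0.0312, edgeR), and in the list of serine and glycerol branches 1 of 8 fell, GPD1 at 1.7-fold (adjusted p = 0.0254, edgeR). At 50 µM against DMSO the 3 lists of gluconeogenesis (4 tested), glycogen (8) and serine and glycerol (8) held 0 called genes by edgeR. The pentose phosphate list held 1 of 8, TALDO1 at 1.23-fold (adjusted p = 0.0328, edgeR). Over all genes 11.6% were called in that comparison, so counts this low in lists this short tell little about these branches. Of the genes named here, the calls of TPI1, PFKM, GCKR, PFKFB3, PFKFB4, DLAT, DLD, SLC16A3, PGM1 and PYGB at 100 µM against DMSO stood without any 1 library, as did GCKR at 50 µM against DMSO and PFKFB4 between the doses. The others were lost without at least 1 library. In the fit of 2 groups only, PFKM (adjusted p = 0.0531, edgeR) and PYGB (adjusted p = 0.0634) lost theirs at 100 µM against DMSO.

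**Figure D5:**
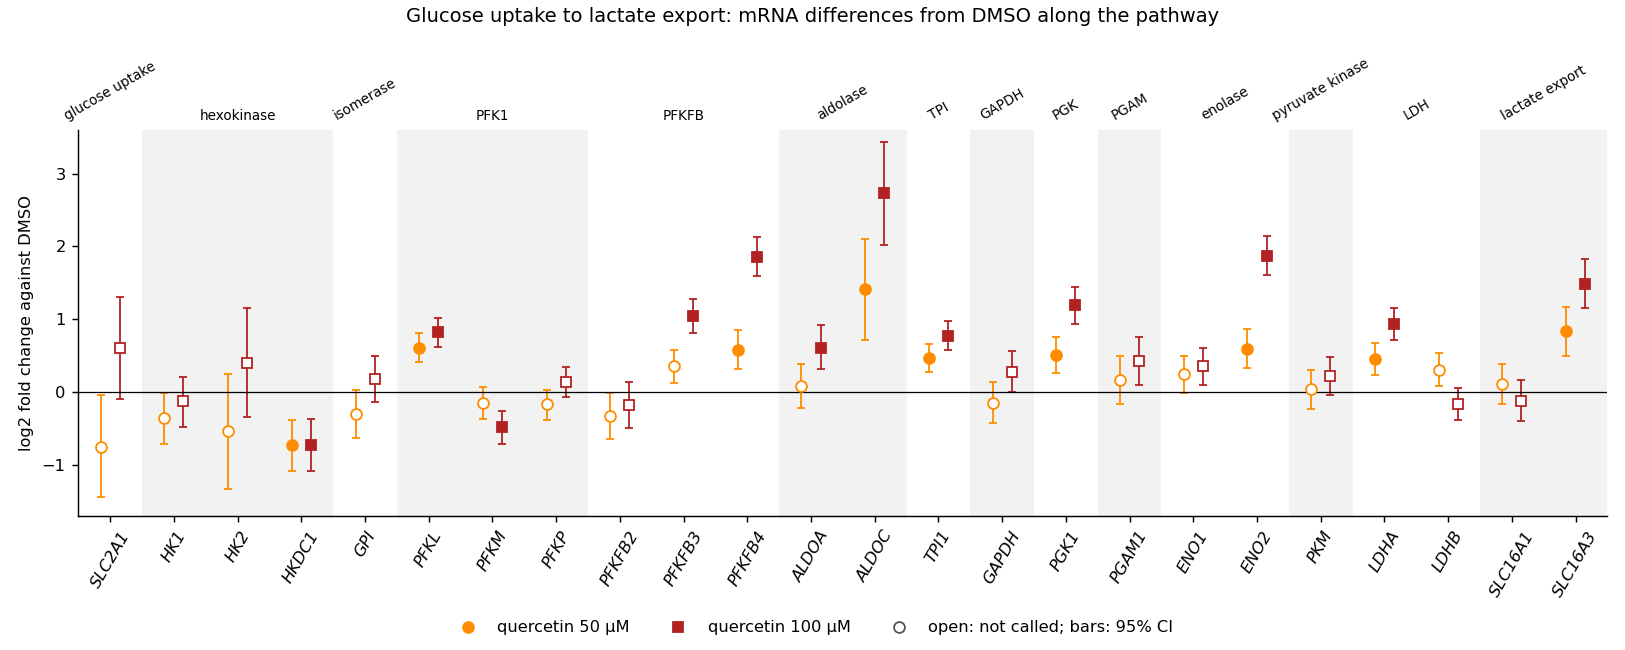
Log2 fold change against DMSO (y axis) of tested genes from glucose uptake (left) to lactate export (right), with 95% confidence intervals; circles are quercetin 50 µM, squares 100 µM, and filled symbols have an adjusted p of at most 0.05 in edgeR. PFKFB4, ALDOC, PGK1, ENO2, LDHA and SLC16A3 are filled at both doses and higher at 100 µM, HKDC1 is filled and below 0 at both doses, and PFKM is filled and below 0 at 100 µM.

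For each member called in a comparison, the genes with the most similar profile were found by the root mean square distance of centred log2(CPM + 1) values over the 9 libraries, among 10470 genes with a mean of at least 5 CPM. Nearest to ENO2 was PFKFB4, at a distance of 0.143, then RNASET2 (0.154) and APOL1 (0.159). Nearest to ALDOC was DEPP1 (0.23), then FXYD3 (0.31) and TMEM45A (0.345). For PGK1 they were BNIP3 (0.107), C4orf3 (0.113) and LDHA (0.124), and for LDHA PTPRB (0.0696), KDM3A (0.0973) and TSPAN3 (0.102). PFKL was nearest to CTDSP2 (0.0608), HLA-DMA (0.0612) and MMP14 (0.0666), and ALDOA to PEDS1-UBE2V1 (0.0676), MRPS6 (0.0723) and RRAGA (0.0738). As a scale, the members' own root mean square departure from their mean was 0.311 for ALDOA, 0.498 for PGK1, 0.784 for ENO2 and 1.09 for ALDOC. All these profiles share the same 9 libraries, so the distances are descriptions.

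The authors' deposited table gives, for 100 µM against DMSO, log2 fold changes of 2.729 for ALDOC, 1.869 for ENO2, 1.191 for PGK1 and 0.935 for LDHA. The q-values of the authors' deposited table passed 0.05 for ENO1 at 50 µM against DMSO (q = 0.00478) and, at 100 µM against 50 µM, for ALDOA (q = 0.00113), GAPDH (q = 0.0026) and PFKP (q = 0.0452), none of which was called by edgeR here.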

How the data were processed

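RNA-seq of 9 HCCLM3 libraries (3 groups of 3) was used. Per the labels' protocols, RNA was extracted with Trizol, selected on oligo(dT) beads and, after PCR, treated with duplex-specific nuclease, which can compress differences between abundant and scarce transcripts; these texts speak of tissue although the samples are cells. HISAT2 2.0.4, Bowtie2 2.2.5, RSEM 1.2.12 and the build GRCh38.p13 are named, without roles or a strand setting, per the submitters' processing notes. The authors deposited expected counts (estimated counts per gene, not normalised) and TPM in 1 table of 17492 genes, with log2 fold changes and q-values of their own comparisons that came from DESeq2 per the file headers. FPKM and normalised counts of the same libraries, 18 columns, were not used.

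Expected counts were rounded to whole numbers and filtered with edgeR's filterByExpr (minimum count 10, minimum total 15, share 0.7), which removed 4660 genes holding 0.042% of counts. The 12832 others were scaled by TMM and fitted in 1 model of 3 groups with edgeR 4.0.16 (limma 3.58.1, R 4.3.3; robust quasi-likelihood F test, two-sided), adjusted by Benjamini-Hochberg over all genes. Standard errors were derived from the log2 fold change and its F statistic; their median was 0.134, and the common dispersion was 0.0206. Fits were tested on simulated data. DESeq2 1.42.0, limma on log2(TPM + 1) and log2(TPM + 0.1), other filters, 2 groups only, a replicate block and left-out libraries were alternatives. Shares of TPM were tested by exact permutation.

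The members and lists were chosen with earlier results of these data known. The members were always named, with all genes of the list of other isoforms and steps; from each other list up to 3 called genes per comparison were named, smallest adjusted p first. PDHA1, PDHB and PDHX were added after their values were seen, to complete their complex; 1 gene of the first list is not reported here. Positions are from GENCODE v29 (GRCh38). Intervals cover the spread between libraries, with depths of 20061136 to 21599805 counts.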

Additional observations from a re-analysis of the deposited data

How the results depend on the processing

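Calls at 100 µM against DMSO were the steadiest: between 5 and 9 of the 10 members under every alternative (6 to 8 with 1 library left out). At 50 µM against DMSO 5 members were called, 0 to 6 with 1 library left out, 2 with a replicate block and 8 (6 higher; PFKP and GAPDH lower) without both libraries that stand apart. At 100 µM against 50 µM 4 were called, 1 to 8 with 1 library left out, 7 with DESeq2, 2 in a fit of 2 groups only, 2 with the replicate block and 9 without both libraries. Over all genes, the 1488 calls at 50 µM became 2567 with DESeq2, 4269 with 2 groups only, 427 with the block, 7398 without both libraries and 90 to 4739 with 1 library left out. The 2692 at 100 µM became 1024 with 2 groups only, 1672 with the block, 6272 without both libraries and 1055 to 3856 with 1 left out, and the 532 between doses became 1382 with DESeq2, 251, 109, 6105 and 43 to 3561 in the same order. The labels do not say whether equal replicate numbers mark a shared culture or day. The correlation of deviations from group means ran from -0.591 to 0.463 between libraries of the same number. These values cannot settle the pairing, since deviations within a group sum to 0 and the libraries that stand apart weigh most in them. Under the block PGK1 (adjusted p = 0.0511), ENO2 (0.0511) and LDHA (0.061) lost their calls at 50 µM, and ALDOC (0.0977) and LDHA (0.0881) theirs between the doses. Shares tested within replicates, as a replicate block, gave an adjusted exact permutation p of 0.0694 for ALDOC (2.9 points, 100 µM minus DMSO) and ENO2 (2.82 points) and of 0.222 for PFKP (1.03 points) and LDHA (18.2 points). With 1 library left out the PFKP share difference ran from -0.425 to 2.96 points (-0.0684 without 100 µM replicate 2) and that of LDHA from 17 to 19.5 points; the LDHA share without both libraries was 18.3 points higher. Signs turned for uncalled members near 0: ALDOA at 50 µM (-0.04 without DMSO replicate 1, up to 0.16 without another library, -0.05 without both libraries), PKM at 50 µM (-0.02 with limma at either pseudocount, -0.01 without DMSO replicate 1, up to 0.07 without another library, -0.01 without both libraries) and ENO1 between the doses (-0.03 without 100 µM replicate 3, up to 0.19 without another library, -0.02 without both). The cause of these shifts was not tested. Both depth and the 3 libraries a group limit the precision; their parts were not compared.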

Other observations

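DMSO replicate 1 and 100 µM replicate 3, the libraries farthest from their companions, deviated from their group means together. Over the genes with a mean of at least 5 CPM the correlation of their deviations was 0.615, as a description. Those of DMSO replicate 1 with the other libraries at 100 µM were -0.591 and -0.529. Deviations within a group of 3 sum to 0, so these values are not independent. In TPM, both libraries were the lowest of their group for ALDOA, PKM, PFKP, LDHA, SLC2A1, KRT8 and CD68 and the highest for ALDOC; in CPM the LDHA level of 100 µM replicate 3 was instead the highest of its group (2337, against 2256 and 2202 CPM). KRT8 stood at 2923 TPM in 100 µM replicate 3, against 4143 and 4242 TPM in its companions, and at 3799 TPM in DMSO replicate 1, against 4299 and 4497 TPM. ENO1, ENO2, GAPDH and PGK1 differed between the 2 libraries: they were the lowest of DMSO in replicate 1 and the highest of 100 µM in replicate 3. What sets these libraries apart was not tested, and the labels give no batch.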
